A study of Ursus arctos with 12 samples.

Results

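The small leucine-rich proteoglycans are a family of secreted matrix proteins, and 10 of their genes were taken by symbol from the 30249 genes counted in brown bear muscle: DCN, BGN, FMOD, LUM, OGN, PRELP, ASPN, OMD, ECM2 and PODN. All 10 were found in the counts and all 10 had enough reads to be tested. The muscle was the vastus lateralis of 6 free-ranging bears (Ursus arctos) aged 2 to 3 years. Each bear gave 1 biopsy in summer, when it was active, and 1 during winter hibernation, so there were 6 summer and 6 winter libraries from the same animals. No other treatment or genotype was involved, and hibernation, the fast, the inactivity and the time of year cannot be told apart in this design.

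These proteins share a core of leucine-rich repeats, to which many of them attach chains of chondroitin, dermatan or keratan sulfate. They bind collagen fibrils and set how thick the fibrils grow and how they are spaced, and several also hold growth factors of the TGF-β family in the matrix. In skeletal muscle they lie in the connective tissue around the fibers and are made mainly by fibroblasts and related interstitial cells. Decorin (DCN), biglycan (BGN), asporin (ASPN) and ECM2 form class I of the family, fibromodulin (FMOD), lumican (LUM), PRELP and osteomodulin (OMD) class II, osteoglycin (OGN) class III and podocan (PODN) class V.

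Reads counted on genes ranged from 16742406 to 32140160 per library. The family was well covered, with 37 reads (FMOD in the winter library of bear 1316) as the lowest count and 21076 (DCN in the summer library of bear 1305) as the highest. Creatine kinase (CKM), an enzyme of the muscle fiber, had at least 889667 reads in every library, so the tissue matched its label. Levels are given as log2 CPM, a log2 scale of reads relative to the TMM-scaled size of the library, with a prior count of 2. Winter was compared with summer by the quasi-likelihood test of edgeR with season as the only term. A gene was called at an adjusted p below 0.05 (Benjamini-Hochberg over the 17290 genes tested), and every adjusted p below is from this test unless another is named. Levels of different members are not compared with each other, because gene lengths were not used here.

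The proteoglycan transcripts were mostly lower in winter compared to summer. Of the 10 members, 6 were called lower: OGN, ASPN, ECM2, BGN, LUM and PODN. Over all genes tested, 19.9% were called lower. When the bear was added as a replicate block, which uses the pairing of the animals, DCN, FMOD and PRELP were called too. That made 9 members lower, beside 3663 of the 17290 genes tested. No member was called higher in edgeR (0 of 10, with 0 at an unadjusted p below 0.05, 0 in DESeq2 and 0 in limma voom), where 19.6% of all genes were. The median log2 fold change of the members was −1.90, beside −0.0021 for all genes tested. Within single bears the median over the members lay between −2.40 (bear 1317) and −1.09 (bear 1511). As these are biopsies of whole tissue, fewer cells that make a transcript and less RNA per cell cannot be told apart.

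**Figure D1:**
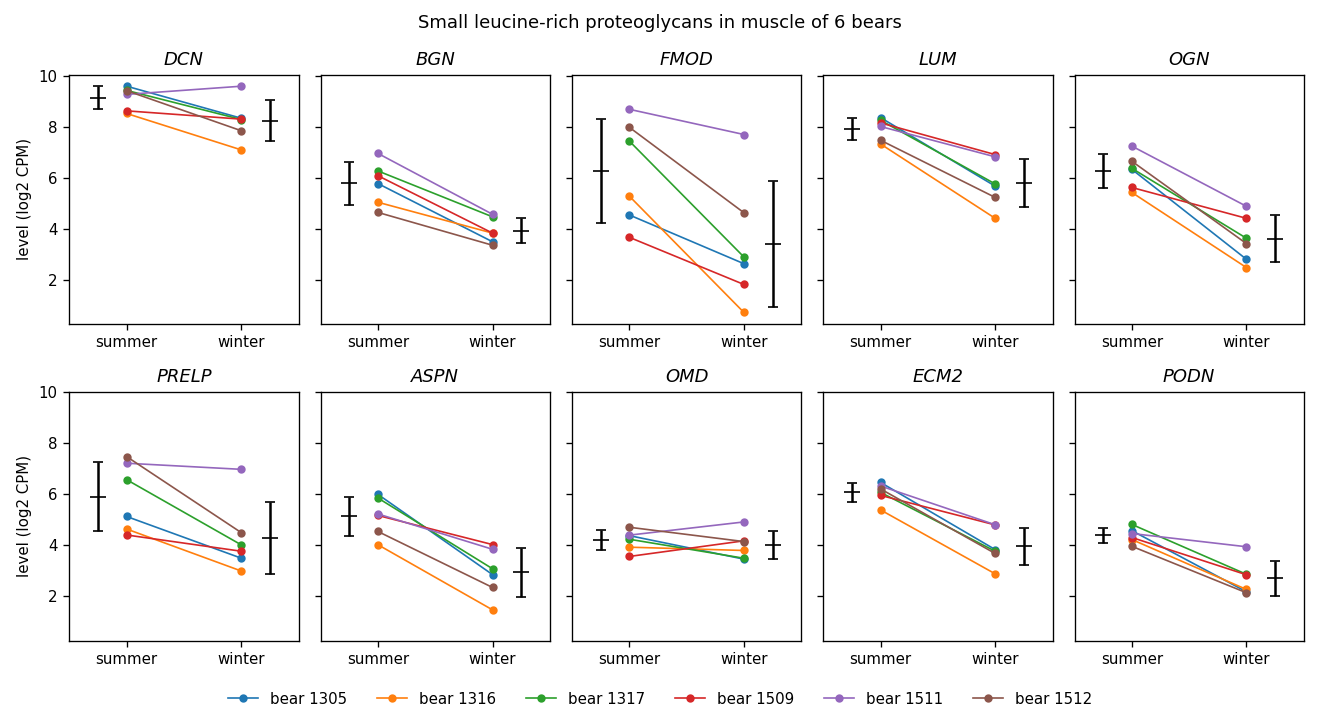
Level of each of the 10 members in log2 CPM in summer and winter, with 1 colored line per bear and the mean ± SD of the 6 bears in black beside each season. Lines of 8 members fall in all 6 bears, DCN rises in bear 1511 and OMD rises in bears 1509 and 1511.

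In all 6 bears 8 members were lower in winter, where 19% of all genes tested were lower in 6 of 6. For 5 members (BGN, LUM, OGN, ECM2 and PODN) every winter library lay below every summer library, which was the case for 8.21% of all genes. DCN was lower in 5 bears and OMD in 4. By bear, 10 members were lower in winter in bears 1305, 1316, 1317 and 1512, 9 in bear 1509 and 8 in bear 1511.

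Together the 10 members took 0.142% ± 0.0474 (SD, n = 6) of the counted reads in summer and 0.0555% ± 0.0391 in winter. In winter the share ran from 0.0201% in bear 1316 to 0.131% in bear 1511, and in summer from 0.0703% to 0.193%. The highest winter library therefore overlapped the summer range, and the other 5 winter libraries, at most at 0.0600%, lay below it.

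Among the class I genes, BGN encodes biglycan, which carries chondroitin or dermatan sulfate chains and can signal through Toll-like receptors when it is released from the matrix. In summer it stood at 4.64 to 6.95 log2 CPM (median 5.92) and in winter at 3.35 to 4.56 (median 3.82). The seasons did not overlap, although the lowest summer library (bear 1512) came within 0.1 of the highest winter one (bear 1511). BGN fell by 2.00 on the log2 scale (standard error, SE, 0.35, adjusted p = 0.000618), a 4.01-fold lower level, and was lower in 6 of 6 bears.

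ASPN encodes asporin, a class I protein with a run of aspartates near its start, which binds collagen and TGF-β. Its summer levels were 4.03 to 6.0 log2 CPM (median 5.20) and its winter levels 1.47 to 4.03 (median 2.97). The winter library of bear 1509, the highest, just reached the summer library of bear 1316, the lowest, so the seasons overlapped by these libraries only. Its season change came to −2.14 (SE 0.42, adjusted p = 0.00131), and single bears ran between −3.15 and −1.14.

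ECM2, a class I member by sequence with a role that is less well described, lay at 5.39 to 6.47 log2 CPM in summer (median 6.15) and 2.89 to 4.81 in winter (median 3.80). Every winter library was below every summer library. Its log2 fold change of −2.01 had an SE of 0.29 (adjusted p = 0.000174), and the change of single bears ran from −2.63 to −1.16.

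DCN encodes decorin, the best known member, which carries a single dermatan or chondroitin sulfate chain, binds collagen I fibrils and holds TGF-β and myostatin. It was at 8.51 to 9.58 log2 CPM in summer (median 9.34) and 7.09 to 9.58 in winter (median 8.29). In winter 5 libraries lay at or below 8.33, under all 6 summer libraries, while that of bear 1511 was level with the highest summer library. The changes of single bears were −1.26 (bear 1305), −1.43 (1316), −1.14 (1317), −0.32 (1509), 0.32 (1511) and −1.57 (1512). With season as the only term DCN was not called (log2 fold change −0.75, SE 0.33, adjusted p = 0.0848). With the bear as a replicate block, which uses the pairing of the animals, it was called (−0.91, adjusted p = 0.0104). Without bear 1511, the bear in which DCN rose, it was called as well, at −1.14 (SE 0.27, adjusted p = 0.00659). Leaving out any other single bear did not call DCN.

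Whether the class I members changed by unlike amounts was tested within bears, on the winter minus summer difference of one gene minus that of another, for the 3 pairs of DCN, BGN and ASPN. The fold changes of these genes were known when the pairs were chosen. The change of DCN was above that of ASPN in 6 of 6 bears, by 1.30 ± 0.52 on the log2 scale (SD, n = 6), with an exact sign-flip permutation p = 0.03125 (two-sided), the smallest that 6 bears allow, and p = 0.09375 adjusted over the 3 pairs. DCN against BGN differed by 0.97 ± 1.18 (exact permutation p = 0.125, adjusted 0.1875, above 0 in 4 of 6 bears) and BGN against ASPN by 0.33 ± 1.09 (exact permutation p = 0.53125, above 0 in 4 of 6). None of the 3 differences passed the threshold after adjustment. With 6 bears a difference that alone reaches the smallest p gets 0.09375 and cannot pass, so this outcome says little about DCN against ASPN. ECM2, also of class I, was not part of this test.

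Counted as a share of the reads of the 10 members, which does not depend on how libraries are scaled, DCN made up 43.5% ± 6.46 (SD, n = 6) in summer and 62.9% ± 6.16 in winter. The summer shares ran from 32.9% to 51.7% and the winter shares from 56.5% to 72.4%, without overlap. In each bear the share was higher in winter, by 15.0 to 24.1 percentage points. OMD was the other member with a higher mean share, 1.44% ± 0.34 in summer and 3.59% ± 1.68 in winter, while LUM went from 19.5% ± 6.49 to 12.1% ± 4.78 and OGN from 5.97% ± 1.13 to 2.59% ± 0.75. These shares describe a mixture and were not tested.

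**Figure D2:**
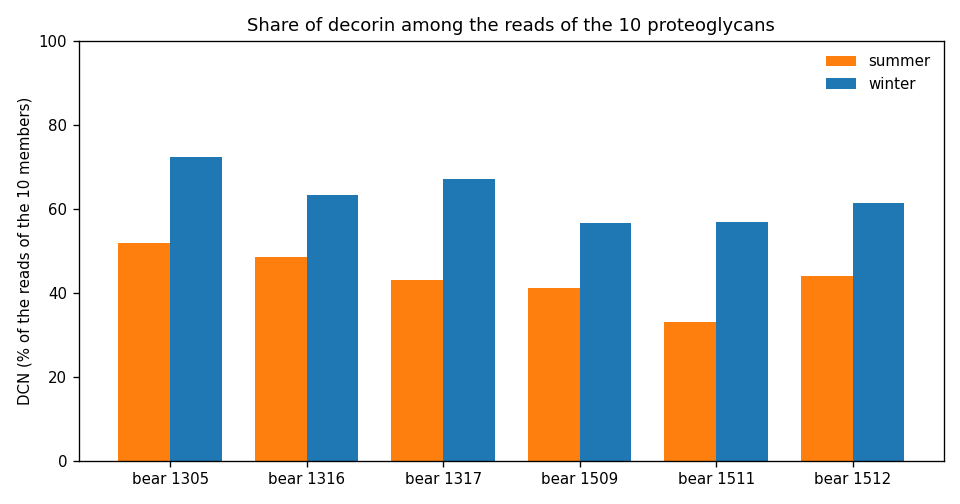
Reads of DCN as a percentage of the reads of the 10 members in each library, with orange bars for summer and blue bars for winter of the 6 bears. The winter bar is taller in every bear, and the lowest winter share (56.5%) stands above the highest summer share (51.7%).

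In class II, LUM encodes lumican, a keratan sulfate proteoglycan that limits the thickness of collagen fibrils. Its levels were 7.32 to 8.35 log2 CPM in summer (median 8.08) and 4.40 to 6.90 in winter (median 5.71), without overlap. LUM fell by 1.93 on the log2 scale (SE 0.37, adjusted p = 0.00102), a 3.82-fold lower level. In bears 1509 and 1511 it dropped by 1.24 and 1.19, and in the other bears by 2.24 to 2.92.

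FMOD encodes fibromodulin, which binds fibrillar collagen, as lumican does, and is abundant in tendon. No other member varied as much between bears of one season, with 3.66 to 8.68 log2 CPM in summer (median 6.36) and 0.71 to 7.69 in winter (median 2.76). Bear 1511 was the highest in both seasons and bear 1512 the second. Every bear was lower in winter, but by amounts from 0.99 (bear 1511) to 4.56 (bear 1316) on the log2 scale. The spread between bears was as large as the change, and FMOD was not called with season as the only term (log2 fold change −1.87, SE 1.12, adjusted p = 0.2). With the bear as a replicate block it was called, at −2.85 (SE 0.47, adjusted p = 0.000962), and without bear 1511 at −3.52 (SE 0.91, adjusted p = 0.0104). Leaving out any other single bear did not call FMOD.

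PRELP, the product of which anchors basement membranes to the collagen beneath them, followed the same bears. It stood at 4.41 to 7.48 log2 CPM in summer (median 5.86) and 3.00 to 6.98 in winter (median 3.90). The winter library of bear 1511, at 6.98, was above 4 of the 6 summer libraries, and the next winter library was at 4.50. PRELP was lower in 6 of 6 bears and was not called (log2 fold change −1.36, SE 0.72, adjusted p = 0.15). The fit with the replicate block called it at −1.62 (SE 0.33, adjusted p = 0.00287), and the fit without bear 1511 at −2.31 (adjusted p = 0.0076). No fit that left out another single bear called PRELP.

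OMD encodes osteomodulin, a keratan sulfate proteoglycan best known from bone. Its levels were 3.57 to 4.71 log2 CPM in summer (median 4.31) and 3.46 to 4.92 in winter (median 3.98), and the ranges overlapped nearly in full. It was lower in 4 bears and higher in bears 1509 and 1511, by 0.61 and 0.52. The fitted change, −0.16 (SE 0.25, adjusted p = 0.63), was smaller than the spread of single bears, −0.92 to 0.61. OMD was the member that no fit called, with a log2 fold change from −0.37 to −0.04 over 16 alternatives.

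OGN, the class III gene, encodes osteoglycin, also called mimecan, a small proteoglycan that takes part in collagen fibril assembly. It was at 5.42 to 7.24 log2 CPM in summer (median 6.34) and 2.47 to 4.87 in winter (median 3.52), and no winter library reached a summer one. OGN fell by 2.57 on the log2 scale (SE 0.41, adjusted p = 0.000332), a 5.94-fold lower level. This was the lowest fold change of the 10 members with season as the only term, while in the fit with the block FMOD was lower (−2.85 against −2.68 for OGN). The class V gene PODN, for podocan, a collagen-binding protein found in smooth muscle and other tissues, lay at 3.97 to 4.82 log2 CPM in summer (median 4.39) and 2.14 to 3.95 in winter (median 2.56). The ranges came within 0.1 of each other but did not overlap. PODN fell by 1.58 on the log2 scale (SE 0.29, adjusted p = 0.000801), with the smallest drop, 0.52, in bear 1511.

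**Figure D3:**
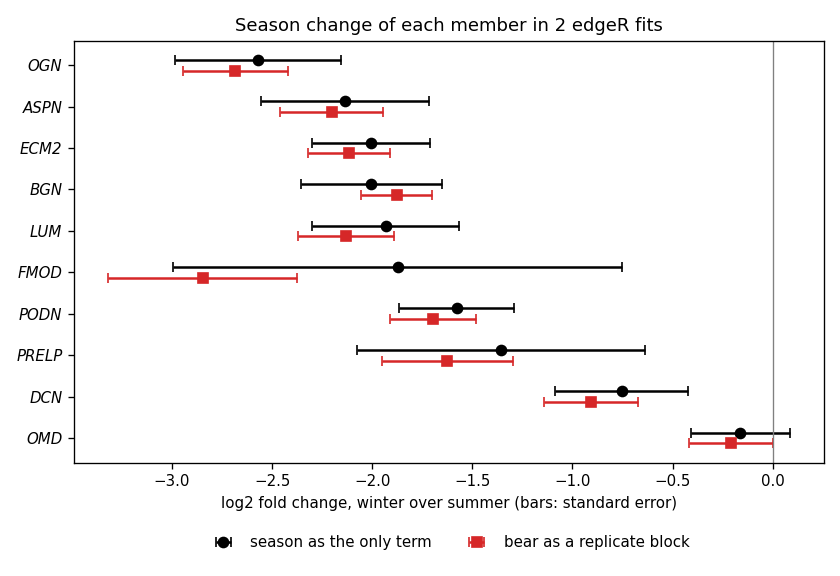
Log2 fold change of winter over summer for each member, with standard errors, in the edgeR fit with season as the only term (black circles) and in the fit that adds the bear as a block (red squares). All 20 points lie below 0, and FMOD moves most between the fits, from −1.87 to −2.85.

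Several members sit side by side in the genome. In the RefSeq annotation of the brown bear assembly UrsArc2.0, a later assembly than the one the counts were made on, DCN is next to LUM, which is followed by KERA. FMOD is next to PRELP, and OGN, OMD, ASPN and ECM2 follow each other. BGN was not matched in this table. Neighbors did not all change alike. The change of OMD was above that of its neighbor OGN by 1.82 to 2.88 on the log2 scale in single bears, and above that of its other neighbor ASPN by 1.63 to 2.43, in 6 of 6 bears each. The change of DCN was above that of LUM by 0.67 to 1.51 in single bears, and that of PRELP above that of FMOD by 0.28 to 2.92. ECM2 and ASPN differed by −0.34 to 0.51, with ECM2 above in 3 of 6 bears. The pairs were picked by position with the fold changes known and were not tested.

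Levels also varied between bears of one season. In winter, bear 1511 had the highest level of 8 of the 10 members and bear 1509 that of the other two, LUM and ASPN. Bear 1316 was the lowest for 7 members in winter and for 5 in summer. To describe how the members varied together, each level was set against its season mean and correlated over the 12 libraries. These libraries come from 6 bears, so they are not independent, and no test was made. The 45 pairs of members had a Pearson r between 0.05 and 0.96 (median 0.67). Those above 0.9 were FMOD with PRELP (0.96), LUM with ASPN (0.96) and LUM with ECM2 (0.92). BGN stood the furthest from the others, with r from 0.05 (OMD) to 0.64 (PODN). Part of this rested on bear 1511. Without it, FMOD with PRELP stayed at 0.91 and LUM with ASPN at 0.96, but PRELP with PODN went from 0.54 to 0.01 and BGN with FMOD from 0.25 to −0.36.

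By the same measure, the named genes outside the family that were most like the mean of the members were NTRK2 (r = 0.97), CACNA2D3 (0.97), DPYSL3 (0.96), C2 (0.95) and UGDH (0.94), over 12 libraries. UGDH makes the UDP-glucuronate that chondroitin and dermatan sulfate chains are built from. With season itself, UGDH was not called (log2 fold change −0.25, adjusted p = 0.219), and neither were NTRK2 (−0.78, adjusted p = 0.215) and CACNA2D3 (0.15, adjusted p = 0.793). DPYSL3 was lower in winter (−1.82, adjusted p = 0.000838), as was C2 (−1.22, adjusted p = 0.0478). For FMOD, the genes most alike were COMP (r = 0.98), CPXM2 (0.97) and TNMD (0.97). LUM was most like SCRN1 (0.97), CCDC80 (0.96) and MFAP5 (0.96), and DCN most like CHRDL1 (0.95), NTRK2 (0.94) and DPYSL3 (0.92).

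TNMD encodes tenomodulin, a membrane protein of tendon cells, and COMP a matrix protein of tendon and cartilage. TNMD ranged from 35 to 1700 reads per library in summer and from 1 to 396 in winter. Bear 1511 was the highest in both seasons for TNMD, COMP and FMOD, but TNMD and COMP were among the 3 genes most like FMOD. The other tendon markers did not all follow this bear. In winter it was also the highest for THBS4, MKX and KERA, while SCX and TPPP3 were highest in bear 1317. In summer it was the highest for SCX, while THBS4 was highest in bear 1317, MKX and KERA in bear 1512 and TPPP3 in bear 1305. Apart from FMOD and KERA, which belong to the family, the tendon markers SCX, MKX, TNMD, THBS4, COMP and TPPP3 summed to 276 to 875 CPM in summer and 48.1 to 595 CPM in winter. In winter bear 1511 stood at 595 and the other bears at 48.1 to 125. SCX, a transcription factor that defines tendon cells, had 0 to 51 reads per library. Of the 8 tendon markers, with FMOD and KERA included, 2 (TPPP3 and KERA) were called lower with season as the only term, and 7 in the fit with the bear as a block. The part of tendon or fascia in the levels of FMOD and PRELP was not tested.

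**Figure D4:**
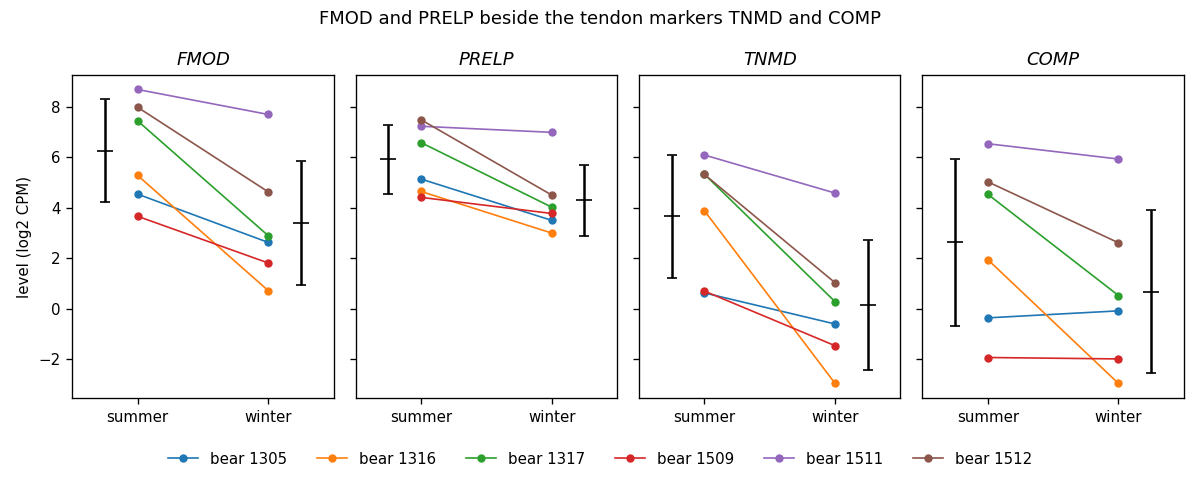
Levels in log2 CPM of FMOD, PRELP and the tendon markers TNMD and COMP in summer and winter, with 1 colored line per bear and the mean ± SD of the 6 bears in black. Bear 1511 is the highest line in both seasons for FMOD, TNMD and COMP, and in winter for PRELP.

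Markers of fibroblasts and fibro-adipogenic cells, the main source of these proteins in muscle, were also lower in winter, with 9 of 14 tested called lower (19.9% of all genes) and 0 higher in edgeR (19.6% of all genes, 0 of the list at an unadjusted p below 0.05, 0 in DESeq2 and 0 in limma voom). Over 16 alternatives the number of these markers called lower ran from 7 (without bear 1305) to 12 (with the bear as a block). The block fit called 3663 of all 17290 genes lower. The markers summed to 1050 to 1425 CPM in summer and 432 to 1110 CPM in winter, where bear 1511 was again the highest. The largest falls were in DPT, for dermatopontin, which binds decorin (−1.85, adjusted p = 0.000505), and PI16 (−1.72, adjusted p = 0.0075). PDGFRA, the receptor that defines fibro-adipogenic cells, missed the threshold at −0.49 (SE 0.21, adjusted p = 0.0772). TCF21, another marker of the list, had too few reads to be tested. With season as the only term, the changes of OGN, ASPN, ECM2, BGN, LUM and FMOD lay below the lowest of these markers (−1.85). The gap was small beside the errors for FMOD (−1.87, SE 1.12) and LUM (−1.93, SE 0.37). The changes of DCN and OMD lay above the markers' median of −1.04. With the bear as a block, the lowest marker was PI16 at −2.09, and BGN, at −1.88, lay above it. LUM (−2.13) and ECM2 (−2.12) were then close to PI16. What share of the members' change goes with the number of fibroblasts was not tested.

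The counts for markers of the other cell types stand beside 19.9% of all genes called lower and 19.6% called higher, and for lists this short several lie near those shares. Of 7 for adipocytes 2 were called lower and 1 higher, the latter being LEP with 0 to 19 reads. LEP was no longer called with the bear as a block (2.54, adjusted p = 0.0629) or in limma voom. For endothelial cells 5 of 8 were lower and 2 higher, from −1.28 for VWF to 0.81 for CLDN5. Of 8 for smooth muscle and pericytes 4 were lower, led by CNN1 (−1.44) and MCAM (−1.42). The macrophage and leukocyte list had 4 of 9 lower, led by CD14 (−1.09), and that of Schwann cells 1 of 7 (S100B, −1.03). None of these 3 lists had a gene called higher in edgeR, DESeq2 or limma voom, or at an unadjusted p below 0.05. Of the 8 muscle fiber markers tested, 2 were lower (MB at −1.01 and ACTA1 at −0.90) and 2 higher (TTN at 0.65 and NEB at 0.53), with a median of 0.08.

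Of the 8 other family genes looked for, 4 had enough reads to be tested and 2 were called lower. KERA, for keratocan, a keratan sulfate proteoglycan known from the cornea, fell by 3.00 on the log2 scale (SE 0.48, adjusted p = 0.000322), from a summer range of 3.72 to 5.82 log2 CPM to a winter range of 0.68 to 3.34. None of the 10 members had a lower fold change. TSKU, for tsukushi, was lower at −1.14 (adjusted p = 0.0198). CHAD, for chondroadherin of cartilage, was not called with season as the only term (−0.84, SE 1.07, adjusted p = 0.557) and was called with the block (−2.31, SE 0.61, adjusted p = 0.0121). OPTC was not called in either fit. EPYC, CHADL, NYX and PODNL1 had too few reads, and no gene was called higher (0 in edgeR, 1 at an unadjusted p below 0.05, 0 in DESeq2 and 0 in limma voom).

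The enzymes that build the sugar chains of these proteins are read beside 19.9% of all genes called lower. For the linker to the protein and the sugar and sulfate donors, 3 of 12 genes were lower, which is near that share. These were XYLT1 (−0.88, adjusted p = 0.0229), PAPSS2 (−0.68, adjusted p = 0.041) and UXS1 (−0.48, adjusted p = 0.00387), and the list's median was −0.04. XYLT1 attaches the first xylose of the chain. For chondroitin and dermatan sulfate synthesis 7 of 14 were lower, with a median of −0.69. CHPF (−1.58, adjusted p = 0.00452) and CHSY3 (−1.42, adjusted p = 0.00636), both of which extend the chain, led the list. They had only 8 to 84 and 4 to 62 reads per library. CHSY1 (0.11, adjusted p = 0.588) and CHPF2 (0.13, adjusted p = 0.586) of this list were not called. Of the 14 genes, 9 had a fold change below 0. The list summed to 117 to 135 CPM in summer and 103 to 120 CPM in winter. For keratan sulfate synthesis 4 of 8 were lower, led by the sulfotransferase CHST2 (−1.12, adjusted p = 0.00749) and by ST3GAL3 (−0.61, adjusted p = 0.000506), with a median of −0.44. None of these genes was called higher in the main test. At an unadjusted p below 0.05, 1 of the linker list, 1 of the chondroitin list and 0 of the keratan list were higher, and DESeq2 and limma voom each called 1 of the linker list.

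The collagens that the family binds were all called lower with season as the only term, 11 of 11 tested (19.9% of all genes tested). Their median log2 fold change was −2.85. Between COL1A1 (−4.59) and COL5A2 (−1.87), 9 of the 11 had no overlap between the seasons. For COL2A1 (−3.78, SE 1.04, adjusted p = 0.0106) the seasons overlapped, and counts spanned 1 to 311. Its level fell in 5 bears and rose in 1. The COL2A1 call was lost in limma voom, with filterByExpr, and when bears 1511 and 1512 were both left out. With season as the only term, the collagen median was below the fold change of each of the 10 members. With the bear as a block, the middle collagen, COL5A1, stood at −2.84 and FMOD at −2.85. The proteases that cut or mature these proteins were listed with PCOLCE, an enhancer of procollagen processing that is not a protease. Of this list 8 of 11 were lower, beside the same 19.9%. PCOLCE (−2.64, adjusted p = 0.000119) and BMP1, the protease that removes the propeptides of biglycan and of fibrillar collagens (−2.38, adjusted p = 3.92e-05), fell most.

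Of the growth factors and receptors that decorin, biglycan and their relatives bind, 9 of 16 tested were lower and 2 higher, beside 19.9% and 19.6% of all genes. TGFB1, a growth factor held by decorin, was lower at −1.38 (SE 0.37, adjusted p = 0.00982), though with only 13 to 105 reads per library. TGFB3, with 401 to 1608 reads, was lower at −0.87 (adjusted p = 0.000374). TGFB2, with 511 to 1061 reads, was not called (−0.05, adjusted p = 0.792). CD14, a co-receptor of the Toll-like receptors that biglycan acts on, was lower at −1.09 (adjusted p = 0.0054). The receptors that rose were IGF1R, to which decorin binds (0.97, SE 0.15, adjusted p = 0.000225, higher in 6 of 6 bears), and P2RX7, which takes part in the biglycan response of macrophages (0.53, SE 0.15, adjusted p = 0.0105, higher in 6 of 6 bears). EGFR and MET, also receptors for decorin, were not called, at 0.05 (SE 0.13, adjusted p = 0.784) and 0.16 (SE 0.15, adjusted p = 0.43).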

How the data were processed

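Muscle RNA of 6 bears was sequenced in summer and winter, giving 12 libraries. The authors prepared stranded poly-A libraries, aligned single reads of 50 bases with TopHat 2.1.1 to ASM358476v1, dropped alignments with more than 3 mismatches and counted reads per gene by strand with featureCounts 1.6.2. The deposited values are these raw counts, neither normalized nor filtered. Tool names were taken from the methods and the submitters' processing notes. The lane of each library is not given in the sources used here.

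Genes needed 30 reads summed over all libraries to be tested. TMM factors scaled the libraries, which were fitted with glmQLFit and glmQLFTest (R 4.3.3, edgeR 4.0.16) with season as the only term. The alternatives were a replicate block, DESeq2 1.42.0 with and without it, limma voom (limma 3.58.1), RLE normalization, library totals, no filter, filterByExpr and each bear left out. The edgeR, DESeq2 and limma voom fits were also run on simulated counts that held a season effect but no bear effect. That run therefore says nothing of what the pairing or the block does in these data. Seasons are paired by animal. Across genes, after removing each season mean, a bear's summer and winter libraries had r of 0.09 to 0.34, and libraries of different bears a median r of −0.06. With 1 biopsy per bear and season, differences between biopsies of a bear are part of the errors and cannot be told apart from differences between bears.

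The members, lists, pairs and alternatives were chosen with earlier results of these data known. The text names the members and, from each list, up to 2 called genes with the largest rises and up to 2 with the largest falls, PDGFRA, and the genes most like the members (5) or a member (3) by correlation, given a mean level of 1 log2 CPM or more and a symbol that is not a LOC number. UXS1, COL2A1, COL5A1, COL5A2, TGFB3, EGFR, MET, CKM and the members of lists named for too few reads or as not called were added after their values were seen.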

Additional observations from a re-analysis of the deposited data

How the results depend on the processing

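Over 16 alternatives the number of members called lower stayed between 6 and 9 and the number called higher at 0, and their median log2 fold change ran from −2.15 (without bear 1511) to −1.71 (without bear 1317), beside −1.90. BGN, LUM, OGN, ASPN, ECM2 and PODN were called lower in each, with adjusted p values of at most 0.0108, and OMD in none. With the bear as a replicate block, in edgeR and in DESeq2, DCN, FMOD and PRELP were called too, which made 9 members lower. The block changed no other member's call. limma voom called DCN (adjusted p = 0.0401) and FMOD (0.0409) but not PRELP. Without bear 1511, and without bears 1511 and 1512 together (chosen after seeing the data), all 3 were called. Leaving out any other single bear called none of the 3. Leaving out the winter library of bear 1509, which stood apart on the second principal component (−98.6, other winter libraries 6.35 to 23.1) and was also chosen after seeing the data, changed no member's call. The class I differences kept their direction in the alternatives run for them (library totals, raw count ratios, another prior count, each bear left out), and their p values say nothing of stability, as few bears allow no small p.

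Some lists of few genes moved by more than 1.5 times. Tendon markers called lower went from 2 to 7 with the block, other family genes from 2 to 1 (without bear 1316, 1317 or 1512), linker genes from 3 to 0 (without bears 1511 and 1512), growth factors and receptors from 9 to 5 (without bear 1317), macrophage markers from 4 to 1 (without bear 1317), endothelial from 5 to 3 (without bear 1509), smooth muscle from 4 to between 2 and 7, adipocyte from 2 to 4 (without bear 1511), muscle fiber from 2 to 1 and Schwann from 1 to between 0 and 2. Genes called higher went from 0 to 1 for the linker list in 8 of 16 alternatives (the block among them), from 1 to 0 for adipocytes in 7, from 2 to 1 for endothelial markers in 5, and from 0 to 1 for other family genes without bear 1511 (OPTC). Of the genes named from the lists, apart from the members, some calls depended on a single bear. Calls were lost without it for TSKU (1316, 1317 or 1512), XYLT1 and PAPSS2 (1305, 1317, 1509 or 1512) and CLDN5 (1305, 1317, 1511 or 1512). They were also lost for LEP (1317, 1511 or 1512), S100B (1305, 1316 or 1317), ACTA1 (1305, 1316 or 1509) and MFAP5 (1305, 1317 or 1512). Without bear 1511, calls were gained for PDGFRA, CHAD, OPTC and the tendon markers TNMD, THBS4 and MKX. The cause was not tested. No test of depth was made. The lowest counts were 37 reads for FMOD and 64 for ASPN among the members, and 0 for SCX and LEP.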

Other observations

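Other proteoglycan core proteins of muscle were lower in winter in part, 10 of 18 called (19.9% of all genes tested) and 0 higher in edgeR (19.6% of all genes, 2 of the list at an unadjusted p below 0.05, 0 in DESeq2 and 0 in limma voom), with a median log2 fold change of −0.68. ACAN, for aggrecan of cartilage, had the lowest value (−5.57, standard error 1.52, adjusted p = 0.0102) but between 0 and 1070 reads per library, and was lower in 5 of 6 bears. It was not called in limma voom or with filterByExpr. SDC1, a cell surface heparan sulfate proteoglycan, followed at −2.58 (standard error 0.53, adjusted p = 0.00174, 6 of 6 bears), with 2 to 93 reads per library.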
